A study of Mus musculus with 6 samples.

Results

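Collagens are secreted or membrane-bound proteins built from 3 chains that wind into a triple helix, and each chain is the product of a gene named Col, a type number, the letter a and a chain number. All protein-coding mouse genes whose symbol follows that pattern were taken, which gave 44 genes among 21887 protein-coding genes of the mm10 build. They were sorted by textbook type into 11 fibrillar genes, 6 basement membrane genes of type IV and 27 others. The study used ATAC-seq, an assay in which a transposase cuts open DNA and leaves sequencing adapters there. The mice were wild type, male and fed a high-fat diet, and 3 liver libraries came from 129S1/SvImJ and 3 from C57BL/6J, both inbred strains. The data were a single combined list of 120905 intervals called accessible, each 201 to 401 bp wide and given by position alone. No interval named a strain or library, so strains were not compared, the spread between replicates could not be measured, and the depth behind an interval is unknown.

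Fibrillar collagens such as types I and III form the rope-like fibrils of connective tissue, and in liver they are made mostly by hepatic stellate cells, above all after these cells are activated during fibrosis. Type IV chains form the sheet-like network of basement membranes, and endothelial and stellate cells contribute it around the liver sinusoids. The other types decorate fibrils, anchor epithelia, span cell membranes or form finer filaments. Hepatocytes make up most of the liver's cell mass, and they are known as a source of type XVIII, whose fragment endostatin inhibits vessel growth. A list from whole tissue does not tell in which cell type a site was open, and fewer cells of a type cannot be told apart from less open chromatin per cell.

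The promoters of 7 genes show what an interval at a collagen start covers and what a start without one looks like. Each line gives 300 bases of the mm10 build from RefSeq, 5′ to 3′ on the gene's strand, from 250 bases before to 50 after the annotated start, and capitals mark the bases inside a deposited interval. Col4a1 (chr8:11312777-11313076, minus strand) and Col4a2 (chr8:11312555-11312854, plus strand) are divergent neighbours. Col27a1 (chr4:63215162-63215461, plus strand) and Col5a1 (chr2:27886175-27886474, plus strand) are fibrillar genes with an interval in the window. It covers the annotated start at Col27a1 and stops short of it at Col5a1. Col1a2 (chr6:4505368-4505667, plus strand) had its nearest interval just outside the window. Col3a1 (chr1:45311288-45311587, plus strand) and both starts of Col18a1 (chr10:77166481-77166780 and chr10:77113656-77113955, minus strand) had none.
Col4a1: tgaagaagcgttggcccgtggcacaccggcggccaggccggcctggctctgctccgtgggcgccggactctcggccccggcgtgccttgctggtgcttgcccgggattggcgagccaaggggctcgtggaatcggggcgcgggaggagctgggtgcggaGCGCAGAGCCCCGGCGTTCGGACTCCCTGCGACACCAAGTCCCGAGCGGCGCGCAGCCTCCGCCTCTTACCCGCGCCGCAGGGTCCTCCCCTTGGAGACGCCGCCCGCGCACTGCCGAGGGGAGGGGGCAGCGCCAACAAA
Col4a2: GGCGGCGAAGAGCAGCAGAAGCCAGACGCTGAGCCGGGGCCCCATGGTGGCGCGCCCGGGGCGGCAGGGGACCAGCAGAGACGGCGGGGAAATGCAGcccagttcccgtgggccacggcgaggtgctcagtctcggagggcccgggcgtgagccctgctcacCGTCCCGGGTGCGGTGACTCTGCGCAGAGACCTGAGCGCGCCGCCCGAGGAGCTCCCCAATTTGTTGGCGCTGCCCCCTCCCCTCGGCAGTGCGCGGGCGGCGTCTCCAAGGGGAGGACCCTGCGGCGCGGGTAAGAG
Col27a1: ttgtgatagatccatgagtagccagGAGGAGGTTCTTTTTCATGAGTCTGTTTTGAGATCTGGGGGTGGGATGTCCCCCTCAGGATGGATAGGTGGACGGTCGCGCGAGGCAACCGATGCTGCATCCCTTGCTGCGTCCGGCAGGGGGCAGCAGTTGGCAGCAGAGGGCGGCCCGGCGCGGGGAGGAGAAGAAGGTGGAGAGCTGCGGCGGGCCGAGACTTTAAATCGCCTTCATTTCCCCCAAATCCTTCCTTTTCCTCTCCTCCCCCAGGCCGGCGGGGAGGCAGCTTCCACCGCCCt
Col5a1: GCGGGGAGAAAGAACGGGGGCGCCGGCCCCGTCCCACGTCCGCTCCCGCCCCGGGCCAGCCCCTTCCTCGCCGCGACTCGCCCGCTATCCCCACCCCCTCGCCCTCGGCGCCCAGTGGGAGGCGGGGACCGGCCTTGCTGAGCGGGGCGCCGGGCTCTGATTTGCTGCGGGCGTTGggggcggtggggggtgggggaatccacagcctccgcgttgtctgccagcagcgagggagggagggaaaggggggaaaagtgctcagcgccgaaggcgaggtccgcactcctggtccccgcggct
Col1a2: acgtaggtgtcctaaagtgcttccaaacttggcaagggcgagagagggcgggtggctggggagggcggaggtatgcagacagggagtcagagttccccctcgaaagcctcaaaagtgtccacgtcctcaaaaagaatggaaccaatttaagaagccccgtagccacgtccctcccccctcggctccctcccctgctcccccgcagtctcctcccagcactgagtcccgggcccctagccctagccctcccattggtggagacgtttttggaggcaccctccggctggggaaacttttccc
Col3a1: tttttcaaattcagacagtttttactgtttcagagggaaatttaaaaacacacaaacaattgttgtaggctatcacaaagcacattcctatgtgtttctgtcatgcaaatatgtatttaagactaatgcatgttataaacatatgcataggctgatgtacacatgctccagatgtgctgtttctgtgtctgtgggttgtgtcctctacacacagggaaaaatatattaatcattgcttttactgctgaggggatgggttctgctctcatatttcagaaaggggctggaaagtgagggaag
Col18a1, outer start: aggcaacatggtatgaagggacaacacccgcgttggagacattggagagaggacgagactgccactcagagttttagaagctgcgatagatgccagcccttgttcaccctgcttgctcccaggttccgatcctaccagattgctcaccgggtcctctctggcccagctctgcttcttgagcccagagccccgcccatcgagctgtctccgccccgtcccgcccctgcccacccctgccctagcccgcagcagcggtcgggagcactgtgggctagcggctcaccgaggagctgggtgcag
Col18a1, inner start: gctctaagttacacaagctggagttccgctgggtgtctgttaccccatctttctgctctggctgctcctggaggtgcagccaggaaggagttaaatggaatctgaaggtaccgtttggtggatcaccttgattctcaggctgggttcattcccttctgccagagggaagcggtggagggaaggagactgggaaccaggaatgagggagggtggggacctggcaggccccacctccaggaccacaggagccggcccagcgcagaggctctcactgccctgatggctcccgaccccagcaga

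In these windows an interval covered 141 of 300 bases at Col4a1, 235 at Col4a2, 274 at Col27a1 and 176 at Col5a1. No base was covered at Col1a2, where the nearest interval stopped 5 bases before the window, at Col3a1 or at either start of Col18a1.

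Almost every collagen gene had an accessible interval somewhere in or near it, but most had fewer than other genes of the same length. Within the gene span and 10 kb to either side, 42 of 44 collagen genes had at least 1 interval (95.5%), against 83.9% of all protein-coding genes. The median was 5 intervals per collagen gene (quartiles 1 and 11.5) and 3 per protein-coding gene (quartiles 1 and 5). Collagen genes are long, with a median span of 114 kb against 17.2 kb, and interval number follows length (Spearman's rho 0.60 across the 44 collagen genes and 0.61 across all protein-coding genes, given as descriptions). Per 100 kb of span and flanks, the median was 3.29 intervals for collagen genes and 6.51 for all protein-coding genes. These densities still compare genes of unlike length, with flanks of the same size for each.

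Each collagen gene was therefore set beside the 200 non-collagen protein-coding genes nearest to it in span length. Its count was below the median of those genes for 29 of 44 collagens (65.9%), above it for 13 and equal for 2, against 38.9% of all protein-coding genes below and 42.1% above the median of their own neighbours. The median difference was -2 intervals, and the median percentile among the 200 genes was 33.5, against 49.8 for all protein-coding genes. At or below percentile 15 stood 16 of the 44 (36.4%, against 14.4% of all protein-coding genes), and at or above percentile 85 stood 6 (13.6%, against 15.2%). The upper share was near the background and the lower share was above it. These are descriptions of a single list, with no test, since genes are not replicates and neighbouring collagens share intervals.

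**Figure D1:**
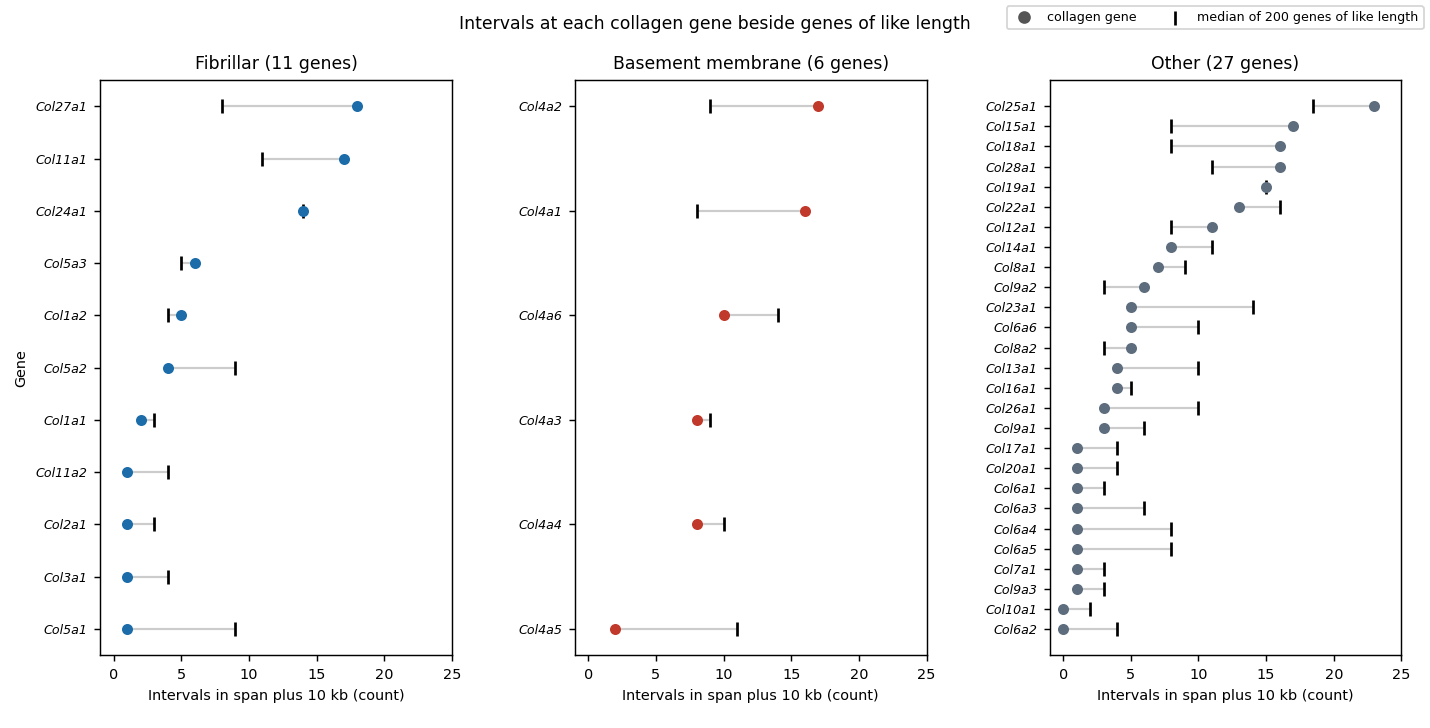
Number of intervals within the span and 10 kb (horizontal axis, count) for each of the 44 collagen genes (vertical axis), as coloured points, beside the median of the 200 protein-coding genes nearest in length, as black ticks. Col27a1, Col4a1, Col4a2, Col15a1 and Col18a1 lie 8 to 10 intervals to the right of their ticks, and Col23a1, Col4a5 and Col5a1 lie 8 or 9 to the left.

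The genes of the major interstitial fibrillar chains had 1 to 5 intervals each. Col1a1, the alpha 1 chain of type I, had 2, and Col3a1, whose chain forms type III, had 1. Col1a2, the alpha 2 chain of type I, had 5. For genes of their length the medians were 3, 4 and 4, and the percentiles were 37.2 for Col1a1, 7.0 for Col3a1 and 64.2 for Col1a2. The partner chains of type I thus differed in number, although Col1a2 is also the longer gene, at 35.9 kb against 16.8 kb.

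The positions at type I and III genes were few enough to give in full. At Col1a1 (chr11:94936224-94953042) an interval of 204 bp was centred 938 bp inside the lower-coordinate end (chr11:94937061-94937264). The other, of 201 bp, lay 5219 bp beyond the upper-coordinate end (chr11:94958161-94958361), within 10 kb of Sgca and Hils1, so its gene is uncertain. The promoter table used here has no entry for Col1a1. Col1a2 (chr6:4505618-4541543) had no interval inside its span. Its nearest one was a 201 bp interval centred 356 bp upstream of the start (chr6:4505162-4505362), followed by one of 243 bp centred 2318 bp upstream (chr6:4503179-4503421). A further 3 of 206, 225 and 201 bp lay past the other end, centred 3203, 4397 and 7554 bp beyond it. The single interval of Col3a1 (chr1:45311538-45349706) was 236 bp wide and centred 2629 bp downstream of the start, inside the gene (chr1:45314050-45314285). Of these 3 genes, Col1a1 and Col3a1 thus had a single interval inside the span, near an end, and Col1a2 had none there.

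The fibril-nucleating type V chains differed from each other. Col5a1, which spans 153 kb, had 1 interval, against a median of 9 for its length (percentile 3.5), and that interval of 201 bp sat 175 bp upstream of the start (chr2:27886150-27886350), over the capitals printed above. Col5a2 had 4 intervals inside 129 kb, against 9 (percentile 17.5), the nearest to an end being 285 bp wide and centred 214 bp inside the upper-coordinate end. Col5a3 had 6, against 5 (percentile 67.8). The 3 type V genes therefore ran from far below to above genes of like length.

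The genes of types II, XI and XXIV also differed from each other. Col2a1, the type II chain of cartilage, had 1 interval, 5099 bp outside its span (chr15:97970395-97970612) and within 10 kb of Tmem106c. Col11a2, a nucleator of cartilage fibrils, also had 1, which lay inside the spans of Slc39a7 and Rxrb 7368 bp upstream of its start. Neither gene had an interval within its own span. Col11a1, the partner chain of Col11a2, had 17 against a median of 11 (percentile 73.5), 16 of them inside 190 kb. None was within 1 kb of its annotated start, the nearest being centred 1402 bp downstream (chr3:114031839-114032045). Col24a1 had 14, equal to the median of 14 for a gene of 260 kb.

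Col27a1, a minor fibrillar chain, had the highest percentile of the fibrillar class. It had 18 intervals against a median of 8 (percentile 92.5), with 15 inside the span of 121 kb and 13 wider than 201 bp. An interval of 274 bp (chr4:63215187-63215460) covered most of its promoter window, centred 89 bp upstream of the start, and one of 216 bp was centred 985 bp downstream (chr4:63216290-63216505). The widest interval of any collagen gene, at 390 bp, was the one 3852 bp past the far end of Col27a1 (chr4:63338649-63339038). It is within 10 kb of Orm1, an acute-phase plasma protein gene of hepatocytes, and a further interval of 211 bp lay inside Orm1, so these 2 cannot be assigned to Col27a1 by position. Without the intervals nearer to another gene, Col27a1 stayed at percentile 92.5.

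The type IV genes come as 3 divergent pairs that share a start region, and the pairs differed. The Col4a1 and Col4a2 genes, which encode the chains of nearly all basement membranes, overlapped by 85 bp. Col4a1 had 16 intervals against a median of 8, and Col4a2 had 17 against 9, at percentiles 88.2 and 88. Together they held 29 distinct intervals, of which 4 lay within reach of both genes.

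A cluster of 3 intervals marked the shared start of this pair. The annotated starts are 21 bp apart, and their promoter windows share 78 bases. The intervals were each 201 bp wide, at chr8:11311676-11311876, chr8:11312451-11312651 and chr8:11312717-11312917, and the last was centred 9 bp downstream of the Col4a1 start and 12 bp downstream of the Col4a2 start. Farther into Col4a1 the widest interval was 318 bp, centred 33350 bp downstream of the start (chr8:11279318-11279635). In Col4a2 the widest was 263 bp, centred 28551 bp downstream (chr8:11341225-11341487). Of the Col4a2 intervals, 2 lay inside Rab20 beyond its far end. With only intervals wider than 201 bp, Col4a2 stayed above genes of like length (percentile 79.2) while Col4a1 was at percentile 49.2, since 11 of its 16 intervals had the narrowest width.

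The other type IV pairs had fewer intervals for their length. Col4a3 and Col4a4, chains of the kidney's glomerular basement membrane, overlapped by 114 bp and had 8 intervals each, at percentiles 41.5 and 41.0. They shared 3 of 13 distinct intervals, including one of 207 bp centred 10 bp upstream of the Col4a4 start (chr1:82586756-82586962). Col4a5, mutated in Alport syndrome in humans, had 2 intervals in 214 kb, against a median of 11 (percentile 7.8), and Col4a6 had 10 against 14 (percentile 35). An interval of 216 bp centred 52 bp upstream of the Col4a5 start (chrX:141475260-141475475) was within reach of both. The other interval of Col4a5, of 201 bp, was centred 114999 bp downstream (chrX:141590318-141590518). The shared one lay 1291 bp from the Col4a6 start, just outside the 1 kb window. Of the Col4a6 intervals, 3 lay inside Atg4a. All 3 pairs thus had an interval at the shared region, while numbers along the genes were above the length median only for Col4a1 and Col4a2.

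**Figure D2:**
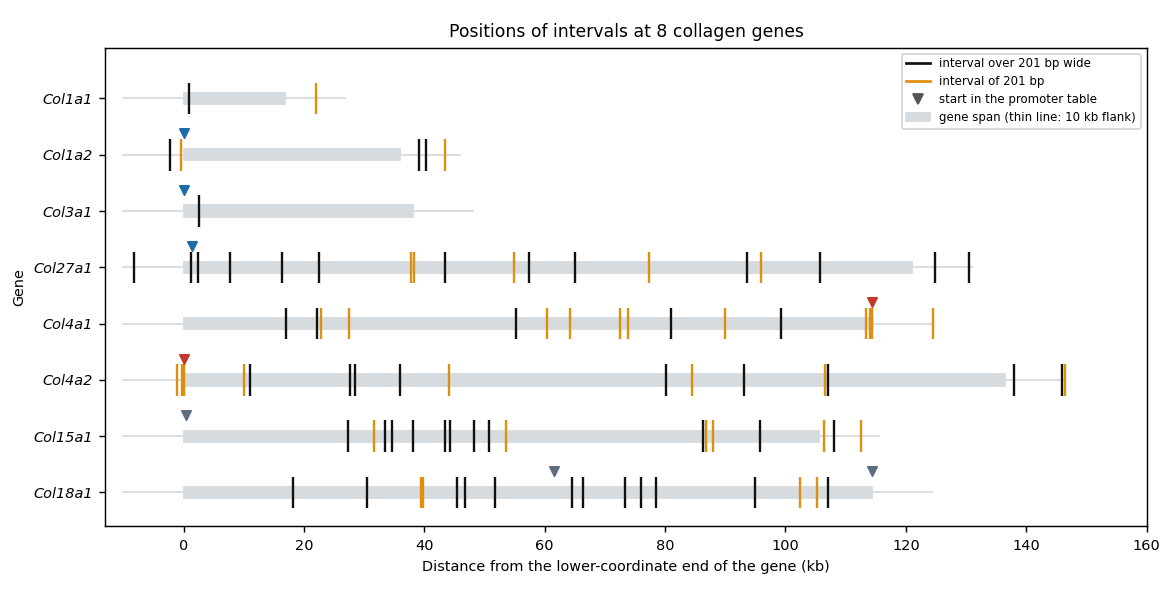
Interval positions at 8 collagen genes, as distance in kb from the lower-coordinate end of each gene; grey boxes are gene spans, thin lines the 10 kb flanks, triangles starts in the promoter table, black ticks intervals over 201 bp wide and orange ticks intervals of 201 bp. Col1a1, Col1a2 and Col3a1 have 2, 5 and 1 ticks, and the ticks of Col15a1 and Col18a1 lie away from the triangles.

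The multiplexins, collagens of basement membrane zones whose ends release anti-angiogenic fragments, were both well above genes of like length. Col15a1 had 17 intervals against a median of 8 (percentile 91.8), 14 of them inside 106 kb and 11 wider than 201 bp. Col18a1 had 16 against 8 (percentile 88.2), all inside 114 kb, and 12 were wider than 201 bp. With only the wider intervals their percentiles were 92.8 and 94.8.

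Neither multiplexin had an interval at an annotated start. In Col15a1 (chr4:47207655-47313167) the nearest was 258 bp wide and centred 27030 bp downstream of the start (chr4:47234914-47235171), and 10 of the 17 lay from that one to chr4:47261135-47261335. In Col18a1 the nearest to the outer start was centred 7302 bp downstream (chr10:77159121-77159335), and the nearest to the inner start was centred 2995 bp upstream of it (chr10:77116593-77116807). Further starts of these genes were not analysed here.

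Type VI genes, whose chains form beaded microfilaments around cells, were low throughout. Col6a2 had no interval, Col6a1, Col6a3, Col6a4 and Col6a5 had 1 each, and Col6a6 had 5. All 6 genes were below the median of genes of like length, against 38.9% of all protein-coding genes. Their median percentile was 3.6 and the highest was 22.8. Together their spans add to 474 kb, and the spans with 10 kb to either side held 9 distinct intervals. The Col6a4, Col6a5 and Col6a6 genes stand in a row over 407 kb of chromosome 9 with 8 intervals, counting 10 kb to either side. The interval of Col6a3 was centred 3497 bp downstream of its start (chr1:90840374-90840574), and that of Col6a1 9165 bp upstream (chr10:76735090-76735328). That of Col6a5, which had the lowest percentile of all collagen genes at 2.0, was 201 bp wide and centred 102650 bp downstream (chr9:105857893-105858093). Of the genes for the 3 chains of the main type VI molecule, Col6a1 and Col6a2 thus lacked an interval inside the span and Col6a3 had 1. Col28a1, a chain related to type VI that is known from peripheral nerve, had 16 against 11 (percentile 69.2).

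Fibril-associated collagens ranged widely. Col9a2, a chain of type IX on cartilage fibrils, had 6 intervals in and around only 15.8 kb, against 3 (percentile 93.5), but 2 of them were within 10 kb of Zmpste24 and only 1 was wider than 201 bp. Its start interval was centred 478 bp downstream (chr4:121039944-121040144). With wider intervals alone the gene was at percentile 30.0. Its partners Col9a1 and Col9a3 had 3 against 6 and 1 against 3. Col12a1, which coats type I fibrils, had 11 against 8, and Col14a1, its close relative, had 8 against 11. Col16a1 had 4 against 5, Col19a1 15 against 15, Col20a1 1 against 4 and Col22a1, known from muscle-tendon junctions, 13 against 16. Of these 9 genes, 2 were above the median of genes of like length, against 42.1% of all protein-coding genes.

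The remaining genes were mostly low for their length. Among the transmembrane collagens, Col25a1, a neuronal protein, had the most intervals of any collagen gene at 23, against 18.5 for genes near 420 kb (percentile 61.8). Col13a1, known from the neuromuscular junction, had 4 against 10, Col17a1 of the skin's hemidesmosomes 1 against 4 and Col23a1 5 against 14. Of the short-chain network genes, Col10a1, the marker of hypertrophic cartilage, had no interval, Col8a1 7 against 9 and Col8a2 5 against 3. Col7a1, the anchoring fibril chain of skin, had 1 against 3, inside the neighbouring gene Pfkfb4. Col26a1 had 3 against 10. Apart from Col25a1 and Col8a2, these genes lay below genes of like length, as did 38.9% of all protein-coding genes.

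As classes, the 3 groups overlapped over nearly the whole scale. The median percentile was 37.2 for fibrillar genes (3.5 to 92.5), 41.2 for basement membrane genes (7.8 to 88.2) and 20.8 for the others (2.0 to 93.5). Below the median of genes of like length were 6 of 11 fibrillar, 4 of 6 basement membrane and 19 of 27 other genes, against 38.9% of all protein-coding genes. The median counts were 4, 9 and 4 intervals, with median spans of 45.1, 138 and 106 kb. With 6 basement membrane genes in 3 pairs that share intervals, the class medians give no ground to rank the classes. With 50 neighbours from the same chromosome, matched by span plus flanks, the basement membrane median was 56, above the middle of the scale.

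**Figure D3:**
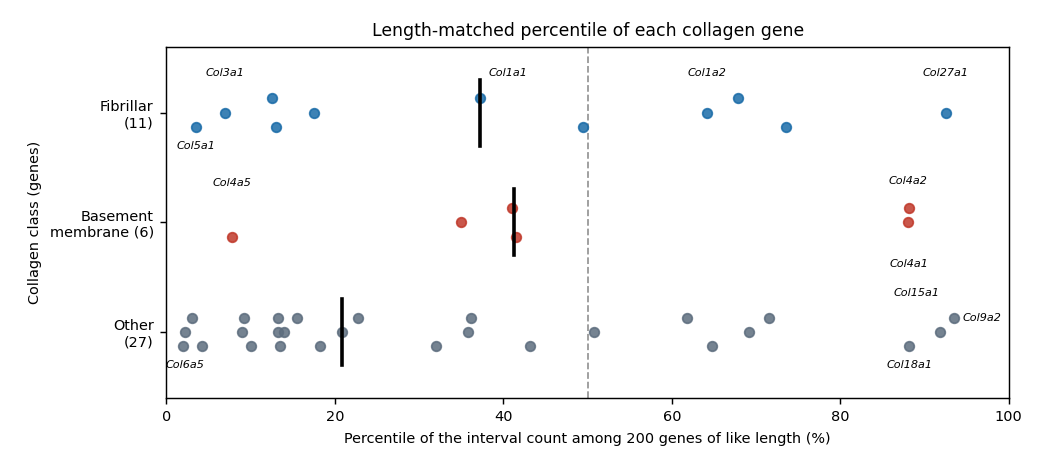
Percentile of each collagen gene's interval count among the 200 protein-coding genes nearest in length (horizontal axis, %), by class; points are genes, black bars class medians and the dashed line is 50. The class medians lie at 37.2, 41.2 and 20.8, and each class has genes near both ends of the scale.

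At annotated starts, intervals were found for a minority of the collagen genes. Of the 35 collagen genes with a start in the promoter table, 12 had an interval within 1 kb of one (34.3%), against 61.7% of all protein-coding genes with such an entry. Among the 200 genes nearest in length to each of the 35, the mean share was 78.4%, and the lowest of the 35 shares, 56.0%, was above the collagen share. Inside the 300-base promoter window the counts were 9 of 35 (25.7%), against 52.1% of all protein-coding genes and a mean of 67.0% of genes of like length. The table has no entry for 9 collagen genes, Col1a1, Col2a1, Col4a3, Col5a2, Col9a3, Col12a1, Col14a1, Col22a1 and Col26a1. With both ends of the span used in place of the start, all 44 genes could be counted, and 19 had an interval within 1 kb of an end (43.2%), against 61.5% of all protein-coding genes.

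By class, an interval was at the start of 4 of 5 basement membrane genes, 3 of 8 fibrillar genes and 5 of 22 others. The basement membrane genes were Col4a1, Col4a2, Col4a4 and Col4a5, of which Col4a1 and Col4a2 share theirs. The fibrillar genes were Col1a2, Col5a1 and Col27a1, and the others were Col8a1, Col9a2, Col16a1, Col23a1 and Col25a1. Intervals wider than 201 bp were at the start of 6 of 35 collagen genes (17.1%), against 52.7% of all protein-coding genes and a mean of 68.1% of genes of like length. The start intervals of Col1a2, Col4a1, Col4a2, Col5a1, Col9a2 and Col16a1 all had the narrowest width.

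**Figure D4:**
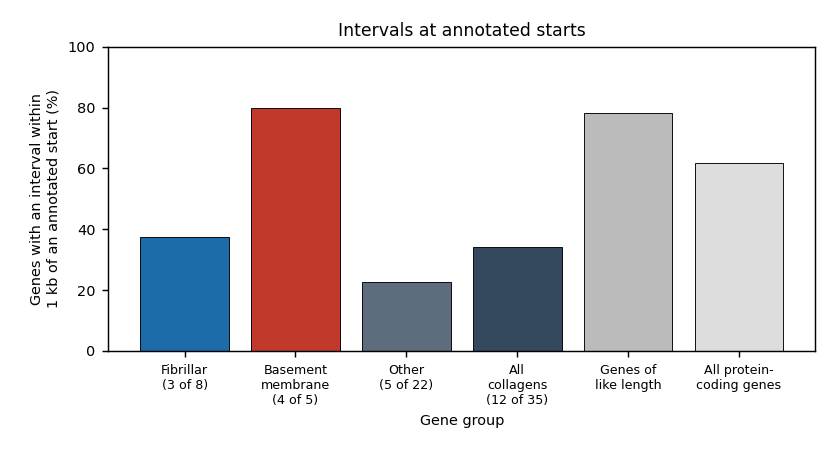
Share of genes with an interval within 1 kb of an annotated start (vertical axis, %), for the collagen classes, all 35 collagen genes with an entry, the mean over the 200 genes nearest in length to each of them, and all protein-coding genes. The bar of all collagens is at 34.3%, that of genes of like length at 78.4% and that of all protein-coding genes at 61.7%.

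Along the genes, collagen intervals showed no surplus near the start. In the 32 collagen genes of at least 20 kb with a known strand, each gene was cut into 4 equal stretches, and the one next to the start held 45 of 196 intervals inside the genes (23.0%), while the next ones held 29.6%, 25.0% and 22.4%. In 7916 other protein-coding genes of at least 20 kb the first stretch held 32.9% of 40920 intervals, and the next ones 23.5%, 22.1% and 21.6%. Those genes were not matched to the collagens in length, so the shares are not compared like for like. Of 249 pairs of a collagen gene and an interval with a known start, 17 were centred within 1 kb of the nearest start of that gene, 30 between 1 and 10 kb and 202 farther away. Of all 300 pairs, 240 (80.0%) were inside the gene span. There, 34 of 44 collagen genes (77.3%) had an interval, against 69.1% of all protein-coding genes, not matched in length. Neither the split by distance nor the share of pairs inside the span was counted for other genes, and both depend on gene length.

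The intervals were unevenly shared among the genes. The 300 pairs came from 291 distinct intervals, because 9 intervals were within reach of 2 collagen genes. The 13 genes with 10 or more (29.5%, against 9.01% of all protein-coding genes) held 203 of the 300 pairs (67.7%, against 38.1% over all protein-coding genes). These shares were not matched for length, and collagen genes are the longer ones in the median. Another 12 collagen genes had a single interval each, a share that was not counted over all protein-coding genes. Another protein-coding gene, other than a collagen, lay within 10 kb of 28 of the 291 intervals (9.62%). This share was not counted around other protein-coding genes, and it was not matched for length. Of the 291, 169 were wider than 201 bp (58.1%, 95% exact interval 52.2 to 63.8, counting error only), against 59.6% of 76264 intervals within 10 kb of any protein-coding gene. The share around all protein-coding genes lay inside that exact interval. That range treats the 291 as independent, though many come from the same genes and all are among the 76264, so it is no test of a difference. At least 1 wider interval was near 35 of 44 collagen genes (79.5%), against 75.7% of all protein-coding genes.

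Base composition at the starts also differed between collagen promoters with and without an interval. The 12 promoter windows with an interval within 1 kb had a median of 62.5% G and C bases (52.7 to 75), and the 26 without had 56.5% (37.7 to 71.7). The number of CpG dinucleotides relative to the number given by base composition was 0.61 with and 0.33 without an interval (medians). Over all protein-coding promoters the same medians were 61.0% and 0.75 for 12850 with an interval, and 48.7% and 0.21 for 8413 without. Col4a1, at 74.0% and a ratio of 0.90, and Col3a1, at 37.7% with no CpG at all, stood near the ends. Col8a2 and Col13a1 had ratios of 0.83 and 0.84 without an interval within 1 kb of the start.

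**Figure D5:**
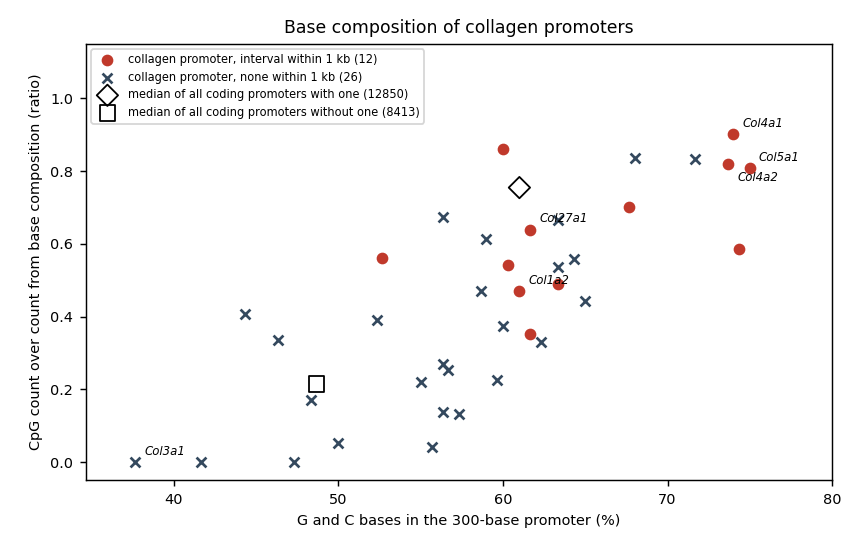
CpG count relative to that given by base composition (vertical axis, ratio) against G and C bases (horizontal axis, %) in 38 collagen promoter windows of 300 bases; red circles have an interval within 1 kb of the start, dark crosses have none, and open symbols are the medians of all protein-coding promoters. The circles lie at ratios of 0.35 and above, and Col3a1 lies at 0.

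Short promoter motifs were searched on both strands of the windows by exact letters. The GC box GGGCGG, a site of Sp1-type factors, was in 23 of 38 collagen windows (60.5%) and in 46.2% of all 21263 protein-coding windows. The CCAAT box, letters CCAAT, was in 13 (34.2%) and in 38.2%, and the TATA box TATAAA was in 5 (13.2%) and in 12.6%. In the printed windows, Col1a2 held 2 CCAAT and 2 GC boxes, Col4a2 1 and 3, and Col4a1 1 and 1. The GC box of Col4a1 is also 1 of the 3 of Col4a2, in the bases that both windows share. The outer start of Col18a1, without an interval, held 1 CCAAT and 3 GC boxes, and its inner start held neither. Col5a1 and Col27a1 held 2 GC boxes each and no CCAAT. Col3a1 held a TATAAA that begins 117 bases before the start, with no CCAAT and no GC box. The CCAAT of Col4a2, 32 bases before its start, lay inside the shared interval. A match of letters is no binding site, and its absence says nothing of a factor.

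Genes that make, process and bind collagen were counted in the same way. Of 14 genes listed for prolyl and lysyl modification of the chains, 13 had an interval within 10 kb (83.9% of all protein-coding genes did). Of the 14, 9 were above genes of like length. P3h2 and Colgalt2 had the most with 14 and 11, and P4ha3, a prolyl 4-hydroxylase subunit, had none. Among 6 folding and export genes, 5 had an interval, about the share of all protein-coding genes. The export factors Mia2 and Mia3 had 12 and 7, and Serpinh1, the collagen chaperone HSP47, had none. All 8 propeptide-processing genes had an interval, beside 83.9% of all protein-coding genes, and 3 were above genes of like length. The proteases Tll1 and Adamts14 had the most with 11 and 7, against medians of 11 and 6 for their length.

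Of the 5 crosslinking lysyl oxidase genes, 4 were below genes of like length, beside 38.9% of all protein-coding genes. Lox, Loxl1, Loxl2 and Loxl4 had 1 interval each. Loxl3 went the other way, with 6 against a median of 3 for its length (percentile 91.2). The median percentile of the 5 genes was 15. Among 8 genes of matrix degradation, the gelatinase gene Mmp2 and the membrane protease gene Mmp14 had 7 each, and 3 were above genes of like length. Of 7 collagen receptor genes 5 were above, with 22 at Itga1, 13 at Itga2 and 6 at Itga10, while Itga11 had 2 against a median of 8 for its length (percentile 6). These 4 are the collagen-binding integrin alpha chains. Among 16 basement membrane partners 7 were above and 9 below. The laminin gene Lama2, which spans 636 kb, had 36 against a median of 25.5 for its length. Lama3 and Lama4 had 11 each, against 14 and 9. Of 6 fibril-associated matrix genes 4 were above, namely Fn1, the fibronectin gene, with 7, Bgn and Dcn with 5 each and Fmod with 4, while the fibrillin gene Fbn1 had 5 against a median of 11 for its length. At annotated starts, 10 of 11 modification genes with a start entry had an interval, as had 4 of 5 folding and export genes. So had 5 of 7 propeptide-processing genes, 1 of 1 crosslinking gene, 3 of 6 degradation genes and 4 of 7 receptors. The remaining counts were 6 of 9 basement membrane partners and 1 of 3 fibril-associated genes, against 61.7% of all protein-coding genes. Read against the 42.1% of all protein-coding genes above their neighbours, these lists went different ways.

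Markers of the cells in liver gave values on both sides of the collagen median percentile of 33.5. The median percentile was 75.1 for 12 hepatocyte genes, 74.6 for 12 endothelial genes, 48.9 for 12 stellate cell genes other than collagens, 33.6 for 8 cholangiocyte genes, 25.0 for 8 lymphocyte genes and 18.0 for 10 macrophage genes. The hepatocyte genes Cps1 and Serpina1a had 9 and 6 intervals, against medians of 8 and 2 for their length, and Asgr1 had none. Among stellate cell genes Reln had 22 and Hgf 9, against medians of 20 and 6 for their length. Each of the 12 had at least 1 (83.9% of all protein-coding genes did), with single intervals at Lrat, Ngfr and Cygb. The part of cell composition in the collagen values was not tested.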

How the data were processed

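Per the labels, the 6 libraries were 3 per strain, with no word on whether replicates are separate animals. All 6 labels also name an antibody to Esrrg, which ATAC-seq does not use. The submitters' processing notes name fastp, Bowtie2, HOMER and mm10; the read-end shift, filters, peak threshold and combining rule are not stated there. The authors deposited 3 columns, chromosome, start and end, so all other values derive from positions.

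Starts were made 1-based. Gene spans came from RefSeq (GRCm38.p6, the mm10 build), and starts, strands and sequences from its promoter table, matched for 35 of 44 collagen genes. An interval overlapping by at least 1 bp counted for each gene it reached. Percentiles place ties at their middle. Counting was checked by a direct count and tested on simulated data (Python 3.11.15, numpy 2.4.6, pandas 2.3.3). The members and lists were chosen with earlier results of these data known, and no p-value was computed. Every collagen gene is named. Single positions follow a rule that takes Col1a1, Col1a2, Col3a1, Col4a1, Col4a2, Col18a1 and, per class, the 2 highest and the lowest percentiles; from each pathway list it takes the 2 genes with the most intervals and those with none. The sequences of Col5a1 and Col27a1, other positions and the markers named were chosen after their values were seen. Col21a1 was not analysed here.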

Additional observations from a re-analysis of the deposited data

How the results depend on the processing

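Of 69 recomputed values, 59 kept their size and direction, 9 moved and 1 changed side. A count or median was taken to have moved beyond 1.5 times, and a class median beyond 10 percentile points. The median number of intervals per collagen gene was 3 without flanks, 8.5 with flanks of 50 kb and 3 with only intervals wider than 201 bp, against 1, 8 and 2 for all protein-coding genes. The median difference from genes of like length was then -1 with the wider intervals. The fibrillar class median was percentile 26.2 without flanks, and that of the others was 33.2 with flanks of 50 kb. The basement membrane median changed side, to 56, with 50 neighbours from the same chromosome, matched by span plus flanks. Collagen genes with an interval at the start numbered 19 with a window of 5 kb (54.3%, against 72.0% of all protein-coding genes), 6 with wider intervals and 19 of 44 at either end. The causes were not tested. The share of collagen genes with an interval at the start or end was below that of all protein-coding genes in each of the 7 settings. No paired analysis was possible because the list has no library columns, and for the same reason no library was left out. The list holds no depth, so a missing interval does not show closed chromatin.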
